A study of Arabidopsis thaliana with 3 samples.

Results

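The genes described here take nitrate into Arabidopsis, move it inside the plant and reduce it. There are 10 of them, listed by locus: the high-affinity transporters NRT2.1, NRT2.2 and NRT2.4, their partner protein NRT3.1, the transporter NRT1.1, the leaf transporters NPF1.1 and NPF1.2, the nitrate reductases NIA1 and NIA2, and the nitrite reductase NIR1. The list follows their roles in nitrate use. All 10 were among the 25665 loci on the array, with 1 probe each, and 7 could be tested.

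The data compare 35S:AtIBH1-SRDX seedlings with wild-type seedlings, both in the Col-0 background and harvested whole at 10 d. The transgene joins IBH1, a helix-loop-helix protein that restrains cell elongation, to SRDX, a short repression motif, and the viral 35S promoter drives it through most of the plant. The labels do not say how many transgenic lines were used. Both genotypes grew on MS agar with 1% sucrose at 23 °C, in a cycle of 16 h light and 8 h dark. RNA of both genotypes was hybridised together on 3 arrays, 1 for each biological replicate per the series' design text. Cy3 carried IBH1-SRDX on arrays 1 and 3, and the dyes were swapped on array 2. The purpose of the comparison is not stated in the labels.

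Nitrate enters root cells from the soil through transporters of the NRT2 and NPF families, and NRT2 proteins need NRT3.1 to work at the plasma membrane. Inside the cell, nitrate reductase makes nitrite in the cytosol, and nitrite reductase makes ammonium in plastids with electrons from ferredoxin. The uptake and reduction genes are known to be induced by nitrate and repressed or promoted by the plant's nitrogen and sugar status.

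The called transporter genes were lower and the called reductase genes were higher. In IBH1-SRDX seedlings NRT2.1, NPF1.1 and NPF1.2 were 2.84-fold, 1.81-fold and 8.82-fold lower than in wild type. NIA1, NIA2 and NIR1 were 1.39-fold, 1.66-fold and 1.90-fold higher. NRT3.1 did not pass the test, NRT1.1 had too few usable spots, and NRT2.2 and NRT2.4 were too dim to measure. Of the 7 tested genes, 3 were therefore lower, where 19.9% of all 19875 tested loci were lower, and 3 were higher, where 18.6% were higher. Each change is the log2 of IBH1-SRDX over wild type, tested against 0 with limma and called at a Benjamini-Hochberg adjusted p below 0.05 over all tested loci. With 3 arrays the precision is limited by their number. The counts of loci rest on the replicates and the preparation: without replicate 1 there were 2487 lower and 2319 higher, in place of 3949 and 3687.

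**Figure D1:**
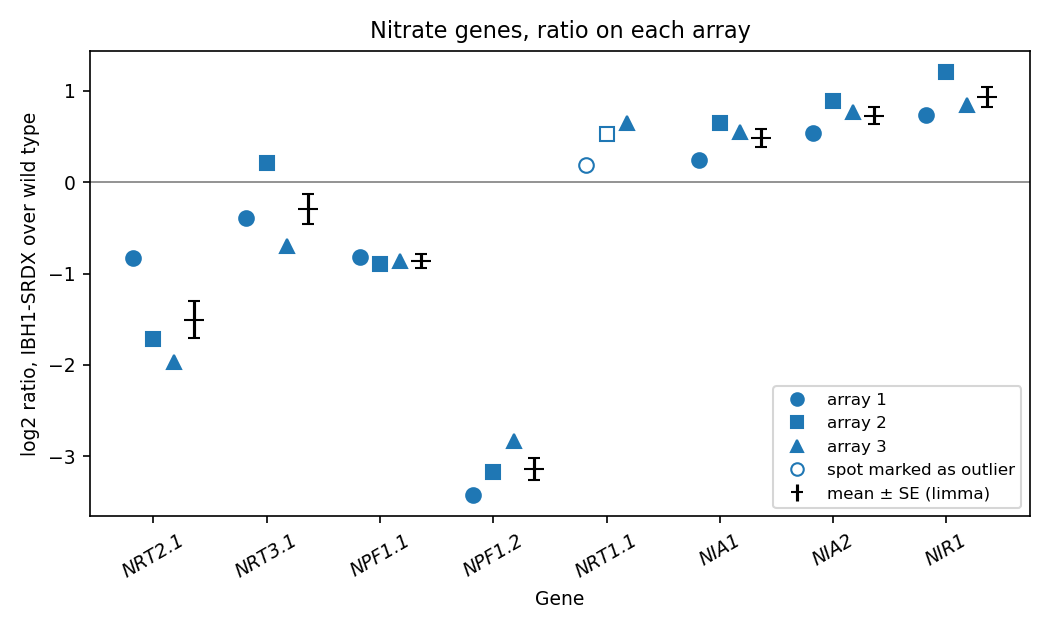
Log2 of IBH1-SRDX over wild type for the nitrate genes, with a point for each array and the mean over arrays with its moderated standard error. NRT2.1, NPF1.1 and NPF1.2 lie below 0 on every array, and NIA1, NIA2 and NIR1 lie above 0 on every array.

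The labels were checked first. The IBH1 probe read lower in IBH1-SRDX seedlings, with -0.88, -0.60 and -0.67 on the log2 scale (mean -0.71 ± 0.09 SE, limma adjusted p = 0.00118). The sources used here do not place that probe relative to the transgene, so whether it reads the transgene was not tested. The probe of SUP, whose protein holds the repression motif from which SRDX was derived, read 8.06, 8.42 and 7.87 higher on the log2 scale on the 3 arrays. The share of spots well above background was 58.8% to 63.5% per channel, and log2 ratios of the 3 array pairs correlated across genes at 0.859, 0.884 and 0.808.

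NRT2.1 (AT1G08090) carries most high-affinity nitrate uptake by the root. Its normalized signal was 4302, 2323 and 2184 units in IBH1-SRDX seedlings, against 7656, 7617 and 8531 units in wild type. The genotypes did not overlap, and the IBH1-SRDX value of array 1 lay nearer to wild type than the other two did. The log2 ratios were -0.83, -1.71 and -1.97 (mean -1.50 ± 0.20 SE, SD 0.60, limma adjusted p = 0.00160, 95% interval -1.98 to -1.03). This was the widest spread between arrays among the 7 tested genes. Leaving out 1 replicate at a time gave means between -1.84 and -1.27, all past the test.

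NRT3.1 (AT5G50200), also named WR3, encodes the partner protein of the NRT2 transporters. Its signal was 5236, 6674 and 4449 units in IBH1-SRDX seedlings and 6892, 5783 and 7232 units in wild type. The genotypes overlapped: IBH1-SRDX was lower on arrays 1 and 3 and higher on array 2. The log2 ratios of -0.40, 0.21 and -0.70 gave a mean of -0.30 ± 0.16 SE that did not pass the test (limma adjusted p = 0.191, 95% interval -0.68 to 0.09). Without replicate 2, the array with swapped dyes, the mean was -0.55 and passed (adjusted p = 0.00915). A dye term fitted over the 3 arrays was 0.38 for NRT3.1 and did not pass (adjusted p = 0.210), and with that term the log2 ratio was -0.17. With 1 swapped array, replicate 2 and the dye orientation cannot be told apart.

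NRT2.2 (AT1G08100) and NRT2.4 (AT5G60770), both high-affinity transporters, were not well above background in either genotype on any array. The raw NRT2.2 spot read 71, 78 and 77 units in the IBH1-SRDX channel and 76, 79.5 and 75 units in the wild-type channel. The NRT2.4 spot read 76, 65 and 78 units in the IBH1-SRDX channel and 79.5, 90 and 82.5 units in the wild-type channel. No fold is given for either gene, and a difference between genotypes was not detectable at these signals. NRT2.1 and NRT2.2 are neighbouring genes in the TAIR10.1 annotation, with 0 genes between them. The planned comparison of their changes could not be made, and cross-hybridisation between paralogues was not tested.

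NRT1.1 (AT1G12110), a dual-affinity transporter that also senses nitrate, was bright in both genotypes. Its spot was marked as non-uniform on arrays 1 and 2, which left array 3, with 23108 units in IBH1-SRDX and 14757 units in wild type (log2 ratio 0.65). It was not tested in the main fit. With marked spots kept, an alternative chosen after seeing the data, the signals were 18032, 21036 and 23108 units in IBH1-SRDX and 15903, 14659 and 14757 units in wild type. The genotypes did not overlap in that setting. The mean was then 0.45 ± 0.11 SE, with a limma adjusted p of 0.0153.

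**Figure D2:**
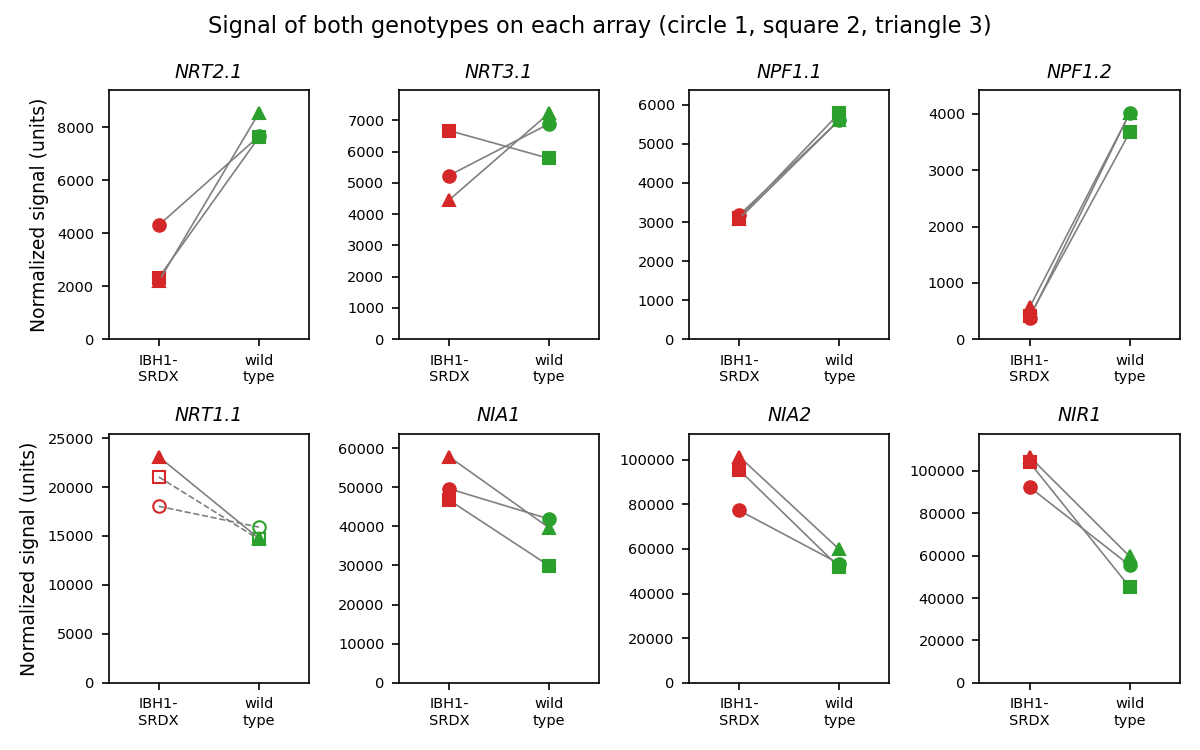
Normalized signal in arbitrary units on each array, IBH1-SRDX left of wild type, in 1 panel per gene with its own vertical scale starting at 0; lines join the genotypes of 1 array. Colours mark the genotype, symbols mark the array, and open symbols of NRT1.1 are spots marked as non-uniform. Panels are not comparable in height, since each probe has its own brightness.

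NPF1.2 (AT1G52190) and NPF1.1 (AT3G16180, also NRT1.12) encode plasma membrane transporters that move nitrate from xylem to phloem in larger leaves, for redistribution to growing ones. NPF1.2 had the largest change of the 7 tested genes. Its signal was 374, 407 and 564 units in IBH1-SRDX seedlings, against 4012, 3669 and 4006 units in wild type. Every IBH1-SRDX value was far below every wild-type value. The log2 ratios were -3.42, -3.17 and -2.83 (mean -3.14 ± 0.12 SE, SD 0.30, limma adjusted p = 2.79e-05, 95% interval -3.42 to -2.86).

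NPF1.1 moved the same way by less. Its signal was 3177, 3110 and 3086 units in IBH1-SRDX seedlings, against 5609, 5786 and 5610 units in wild type. The arrays lay close together within each genotype and the genotypes were well apart. The log2 ratios were -0.82, -0.90 and -0.86 (mean -0.86 ± 0.08 SE, SD 0.04, limma adjusted p = 3.28e-04). The log2 ratio of NPF1.1 exceeded that of NPF1.2 by 2.602, 2.276 and 1.967 on the 3 arrays (mean 2.28, SD 0.32). An exact two-sided permutation test gave p = 0.25 for that difference, the smallest p that 3 arrays allow. This compares changes, not levels, since the 2 probes differ in brightness.

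NIA1 (AT1G77760) and NIA2 (AT1G37130) encode the nitrate reductases, of which NIA2 supplies most of the activity in seedlings. The signal of NIA1 was 49624, 46736 and 57826 units in IBH1-SRDX seedlings, against 41868, 29913 and 39609 units in wild type. The genotypes did not overlap, with the narrowest step on array 1. The log2 ratios of NIA1 were 0.25, 0.64 and 0.55 (mean 0.48 ± 0.10 SE, SD 0.21, limma adjusted p = 0.00923).

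For NIA2 the signal was 77212, 95395 and 101340 units in IBH1-SRDX seedlings, against 53344, 51659 and 59731 units in wild type. All IBH1-SRDX values lay above all wild-type values, again with the smallest step on array 1. The log2 ratios were 0.53, 0.88 and 0.76 (mean 0.73 ± 0.09 SE, SD 0.18, limma adjusted p = 0.00141). The log2 ratio of NIA1 was below that of NIA2 on every array, by -0.29, -0.24 and -0.22 (mean -0.25, SD 0.04, exact two-sided permutation p = 0.25, the smallest possible).

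NIR1 (AT2G15620), the only nitrite reductase gene, had the largest change of the 3 reductases. Its signal was 92414, 104075 and 106769 units in IBH1-SRDX seedlings, against 55430, 45191 and 59637 units in wild type. The genotypes did not overlap. The log2 ratios were 0.737, 1.204 and 0.840 (mean 0.93 ± 0.11 SE, SD 0.24, limma adjusted p = 9.11e-04). Array 2 gave the highest ratio for NIA1, NIA2 and NIR1, and it is the dye-swapped array; with a dye term the ratios were 0.52, 0.77 and 1.00.

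The reductase probes were among the brightest on the arrays: 0.921%, 0.377% and 0.337% of tested loci were brighter than NIA1, NIA2 and NIR1. Their spots were read in part from the low-gain scan of an extended-range scan on every array, and so was the spot of NRT1.1. Among the 184 loci at least as bright as NIA1, 16.3% were higher and 25.5% were lower, with a median log2 ratio of -0.09. With median centring in place of loess, the reductase ratios were 0.28, 0.51 and 0.71 and none passed (limma adjusted p = 0.929, 0.555 and 0.234). The ratios were smaller, and the SE was 0.32 for each of them in that setting, against 0.10, 0.09 and 0.11 in the main fit. That setting left 674 lower and 591 higher of all loci, and NRT2.1, NPF1.1 and NPF1.2 were still called lower.

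**Figure D3:**
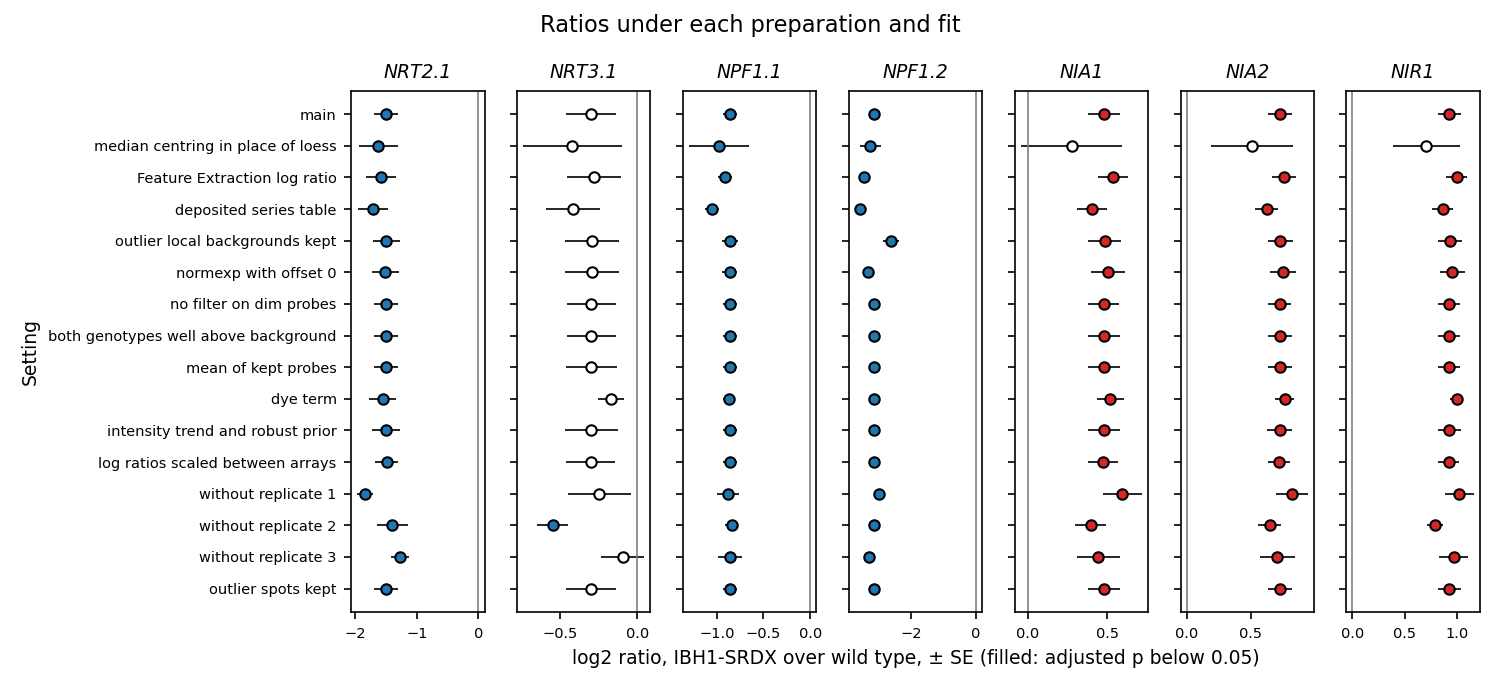
Mean log2 of IBH1-SRDX over wild type for the tested nitrate genes under each way of preparing the data and with each replicate left out; filled points passed the test and bars are standard errors. NRT2.1, NPF1.1 and NPF1.2 stay filled below 0, and NIA1, NIA2 and NIR1 stay above 0 but are open under median centring; NRT3.1 is filled without replicate 2.

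Reduction of nitrite draws on plastid reductant, and genes that supply it were mostly higher. Of 7 tested genes of that list, 6 were higher, 0 were lower and 1 did not pass. Over all tested loci 18.6% were higher and 19.9% were lower. The list's median log2 ratio was 0.98, against a median of 0.00 over all tested loci. RFNR1, a root-type ferredoxin-NADP reductase, had log2 ratios of 1.83, 1.63 and 1.76 (mean 1.74 ± 0.08 SE, limma adjusted p = 3.93e-05). G6PD3, a plastid glucose-6-phosphate dehydrogenase, had 1.41, 1.44 and 1.44, nearly the same on each array (mean 1.43 ± 0.08 SE, limma adjusted p = 5.57e-05). The other root-type reductase, RFNR2, averaged 0.98 ± 0.09 SE, and the locus AT5G41670 averaged 1.32 ± 0.09 SE, both past the test. With median centring 3 genes of the list passed, RFNR2 not among them.

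The reductases also need cofactors, which are molybdenum cofactor for nitrate reductase and siroheme for nitrite reductase. Of 8 tested genes for their synthesis 4 were higher and 4 did not pass, where 18.6% of all tested loci were higher. The median log2 ratio of the list was 0.24. UPM1, a methyltransferase of siroheme synthesis, was 1.57 and 1.22 on arrays 2 and 3 (mean 1.39 ± 0.12 SE, limma adjusted p = 6.25e-04), and its array 1 spot was marked as an outlier. The molybdenum cofactor genes CNX7, CNX2 and CNX1 averaged 0.63 ± 0.08, 0.38 ± 0.08 and 0.29 ± 0.09 (SE), with limma adjusted p of 0.00126, 0.00949 and 0.0440. Without any 1 of the replicates the list had 2 genes higher. CNX1 lost its call each time, CNX2 did so without replicate 1, and UPM1 could not be tested without replicate 2 or replicate 3, having 1 usable array left. The 3 CNX calls also ended with median centring, where 1 gene of the list passed, and those of CNX1 and CNX2 with outlier backgrounds kept. CNX1 lost its call too with the deposited series table and with a normexp offset of 0.

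Phytoglobins bind and scavenge nitric oxide, which nitrate reductase can form from nitrite. HB1 had the largest increase of all the listed genes, at log2 ratios of 2.116, 2.685 and 2.527 (mean 2.44 ± 0.12 SE, limma adjusted p = 4.29e-05). GLB3 averaged 1.17 ± 0.10 SE (limma adjusted p = 2.99e-04), and HB2 averaged 0.04 and did not pass (adjusted p = 0.752). The 2 called genes also passed with median centring. Of 3 tested phytoglobins 2 were thus higher and 0 lower, where 18.6% of all tested loci were higher and 19.9% lower. A list of 3 is too short to tell its counts from these shares.

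**Figure D4:**
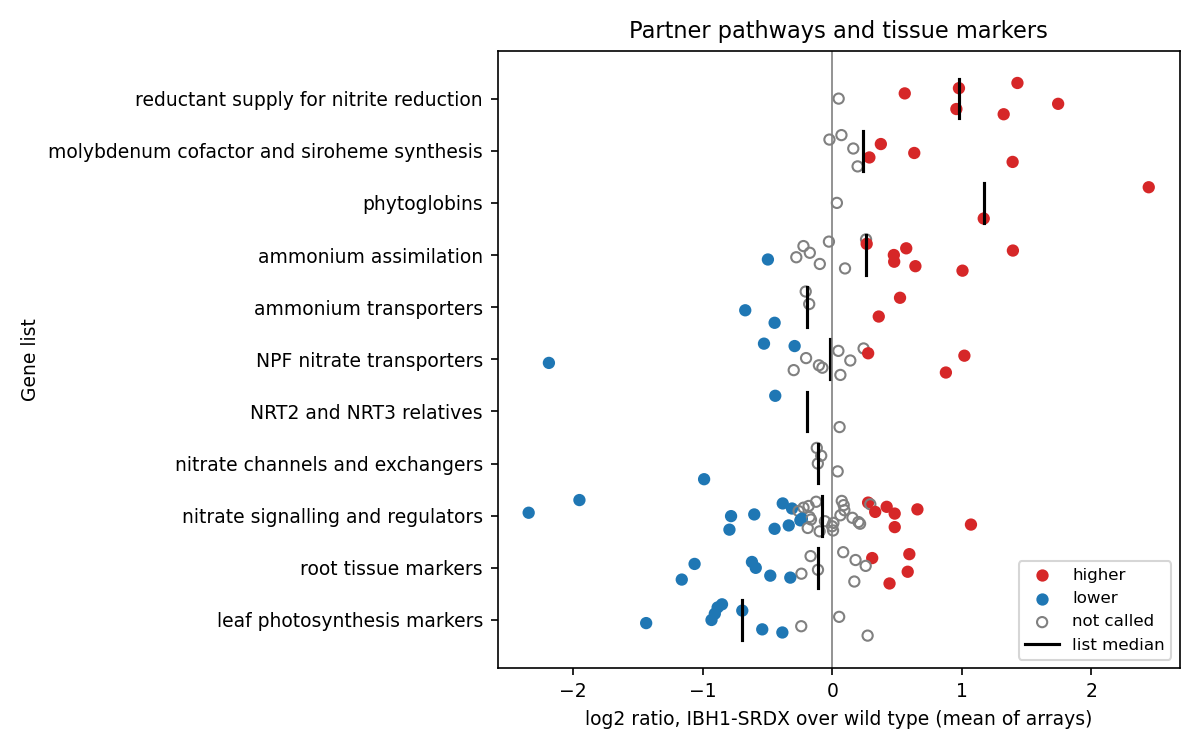
Mean log2 of IBH1-SRDX over wild type for each tested gene of the pathway and marker lists, 1 row per list, with called and uncalled genes marked and the list median as a bar. The reductant list lies mostly above 0, and the leaf photosynthesis markers lie mostly below 0.

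Among other transporters of nitrate, calls went both ways. Of 14 tested NPF transporters 3 were lower, 3 were higher and 8 did not pass, with a median log2 ratio of -0.01. These counts are close to the shares over all loci, 19.9% lower and 18.6% higher. NPF6.2, which holds nitrate in leaf petioles, had ratios of -2.42, -1.96 and -2.17 (mean -2.19 ± 0.10 SE, limma adjusted p = 4.03e-05). NPF2.9, a root phloem transporter, fell by 0.53 ± 0.09 SE on the log2 scale (adjusted p = 0.00508). NPF2.13, which removes nitrate from old leaves, rose by 1.02 ± 0.09 SE (adjusted p = 3.55e-04). NPF7.2, which retrieves nitrate from the xylem, rose by 0.88 ± 0.12 SE (adjusted p = 0.00169). NPF7.3, which loads nitrate into the xylem, averaged 0.24 and the locus AT5G11570 averaged 0.06, and neither passed (adjusted p = 0.145 and 0.632); NPF7.3 passed at 0.38 without replicate 2. With median centring the calls of NPF2.9, NPF2.13 and NPF7.2 ended, and with outlier backgrounds kept that of NPF7.2.

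Of 5 listed relatives of the NRT2 and NRT3 members, 2 could be tested, while NRT2.5, NRT2.6 and the locus AT4G24720 could not. NRT2.7, a nitrate transporter of the vacuole membrane in seeds, averaged -0.44 ± 0.14 SE (limma adjusted p = 0.0408) and did not pass without replicate 1 or without replicate 3, nor under 4 other settings. Of 5 channels and exchangers 1 was lower, a count close to the 19.9% of all tested loci that were lower. That gene was CLCA, the nitrate and proton exchanger that fills the vacuole. Its log2 ratios were -1.04, -1.12 and -0.81 (mean -0.99 ± 0.09 SE, limma adjusted p = 3.74e-04).

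Ammonium, the product of nitrite reduction, is taken up by AMT transporters and built into glutamine and asparagine. Of 15 assimilation genes 7 were higher, 1 was lower and 7 did not pass, with a median log2 ratio of 0.26. The shares over all tested loci were 18.6% higher and 19.9% lower. The asparagine synthetases ASN1 and ASN2 rose by 1.39 ± 0.14 and 1.01 ± 0.08 (SE) on the log2 scale (limma adjusted p = 5.19e-04 and 2.16e-04). The cytosolic glutamine synthetases GLN1;1 and GLN1;3 rose by 0.64 ± 0.10 and 0.57 ± 0.09 (SE), with limma adjusted p of 0.00306 and 0.00302. GLN2, the plastid glutamine synthetase, averaged -0.10 and did not pass (adjusted p = 0.365). With median centring the list had 1 gene higher, and the calls of ASN2, GLN1;1 and GLN1;3 ended; that of ASN1 ended with outlier backgrounds kept.

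Of 6 ammonium transporters 2 were lower, 2 were higher and 2 did not pass. Over all tested loci 19.9% were lower and 18.6% were higher, and a list of 6 is too short to tell its counts from these shares. AMT1;3 fell by 0.67 ± 0.14 SE (limma adjusted p = 0.0106). No array had AMT1;4 well above background in IBH1-SRDX seedlings. The mean signal of AMT1;4 was 84.5 units there, against 115 units in wild type (called lower, limma adjusted p = 0.00487). It passed the filter for dim probes through wild type alone, so the call is not separate support for a lower level. With both genotypes required above background AMT1;4 was not tested, and the list had 1 gene lower. No fold is given, since its size moved with the treatment of background: the log2 ratio of AMT1;4 was -0.26 with outlier backgrounds kept, -1.98 with the Feature Extraction ratio and -2.11 with the deposited series table. AMT2;1 rose by 0.52 ± 0.10 SE (limma adjusted p = 0.00568). AMT1;1 rose by 0.36 ± 0.10 SE (limma adjusted p = 0.0276) and lost its call without replicate 1 or without replicate 2, and with the Feature Extraction ratio or the deposited series table. With median centring none of the 6 passed, and with outlier backgrounds kept AMT1;4 and AMT1;1 did not.

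Of 38 tested genes for nitrate signalling and regulation 11 were lower, 7 were higher and 20 did not pass, with a median log2 ratio of -0.08. Over all loci 19.9% were lower and 18.6% were higher, so the count of higher genes is near the background. The higher genes include ANR1, which was well above background on 3 arrays in IBH1-SRDX and on 1 in wild type. ANR1 passed the filter for dim probes through IBH1-SRDX alone, so its call is not separate support for a higher level. The calls with the smallest adjusted p were lower: the loci AT2G47880 and AT1G06830 averaged -2.34 ± 0.11 and -1.95 ± 0.11 (SE), with limma adjusted p of 3.93e-05 and 7.44e-05. BT2, a BTB and TAZ domain protein known to lower nitrate uptake gene expression, fell by 0.78 ± 0.12 SE (adjusted p = 0.00322). NLP3, of the NIN-like transcription factors that act in nitrate responses, rose by 1.07 ± 0.13 SE (adjusted p = 0.00130). HY5, a light-signalling bZIP factor, rose by 0.48 ± 0.10 SE (adjusted p = 0.0110). NLP7 and the kinase gene CIPK23 averaged -0.06 and 0.09 and did not pass (adjusted p = 0.624 and 0.411). Without replicate 1 the list had 6 lower genes. With median centring it had 3 lower and 1 higher, without HY5, and with outlier backgrounds kept 6 lower and 0 higher, so that NLP3 and HY5 lost their calls.

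Across all pathway lists, 98 of 103 genes were tested, of which 19 were lower, 31 were higher and 48 did not pass. Their median log2 ratio was 0.05. The lower count is near the 19.9% of all loci that were lower, and 18.6% of all loci were higher.

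Several of the named transporters act in the root or the leaf, and whole seedlings mix both. In such bulk samples, fewer cells of a type and less RNA per cell cannot be told apart. Of 11 leaf photosynthesis markers 8 were lower, 0 were higher and 3 did not pass, with a median log2 ratio of -0.69. By comparison, 19.9% of all tested loci were lower and 18.6% were higher. The summed signal of the 10 markers measured on every array was 216684 to 253417 units in IBH1-SRDX and 339936 to 348148 units in wild type. Of 17 root markers 6 were lower, 4 were higher and 7 did not pass, with a median of -0.11. The count of higher root markers is near the 18.6% of all tested loci, and 19.9% of all tested loci were lower. The summed signal of the root markers was 14638 to 17878 units in IBH1-SRDX and 17702 to 18145 units in wild type. All the markers of both lists were above background in at least 1 genotype, and CASP5 was not above background in IBH1-SRDX. CASP1 to CASP4, of the CASP genes that build the Casparian strip of the root endodermis, were lower, at log2 ratios of -1.06 to -0.32. SHR, not a CASP gene, was lower at -0.48. CASP5 was also called lower, but it passed the filter for dim probes through wild type alone and no fold is given. With both genotypes required above background, 5 root markers were lower. The 4 higher root markers were MYB36, a regulator of the CASP genes, at 0.44, the root hair regulators RSL4 and RHD6 at 0.60 and 0.31, and PHO1, a phosphate exporter of the stele, at 0.58. MYB36 was at 0.02 on array 2. With median centring 5 leaf markers were lower, and 2 root markers were lower and 0 higher. With outlier backgrounds kept 4 root markers were lower and 1 was higher. The deposited series table gave 8 root markers lower and 1 higher. The part of tissue makeup in the changes of the nitrate genes was not tested.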

How the data were processed

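RNA of 3 biological replicates of each genotype was compared on 3 2-colour Agilent arrays, which shared 1 slide and 1 scan. The scanner output, as deposited, gives an intensity for each spot and its surroundings and a log10 ratio of the dyes, made with Agilent Feature Extraction 9.1.3.1 per the submitters' processing notes. A deposited table of the series has ratios on the natural log scale; set against the scanner files, it ran as IBH1-SRDX over wild type (slope 1.00, constant -0.0929), and how that constant was set stays unknown.

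Median spot and background signals were used. Local backgrounds marked as outliers took the median of the others of their array and channel. Then normexp (offset 50) and loess within each array were applied, with controls at weight 0 and outlier spots left out. Spots of a probe were averaged. A probe was kept if well above background on every array in 1 genotype, the brightest was used per locus, and a locus needed 2 usable arrays. Log2 ratios were tested with limma 3.58.1 (residual 2 and prior 4.88 degrees of freedom) in R 4.3.3, with Benjamini-Hochberg adjustment over 19875 loci. With 1 swapped array of 3, 33.3% of any dye effect stays in a mean.

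The members, the lists and the preparation were chosen with earlier results of these data known. All members are named; from each list, up to 4 called genes with the smallest adjusted p and 10 genes given by name where measured. Symbols came from the TAIR10.1 gene table. The fit was also run on simulated arrays, where every probe had the same noise and far fewer probes changed than were called here. That run does not test the fit at the share of changes seen in these data. Coordinates and sequences were not used here. Alternatives were other background, scaling, filter and dye settings, the deposited series table and each replicate left out.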

Additional observations from a re-analysis of the deposited data

How the results depend on the processing

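NRT2.1, NPF1.1 and NPF1.2 stayed lower and past the test under all 15 alternatives, at log2 ratios of -1.84 to -1.27, -1.05 to -0.84 and -3.58 to -2.61. With median centring in place of loess, NIA1, NIA2 and NIR1 kept their direction at 0.28, 0.51 and 0.71 but none passed, so 0 of the nitrate genes were called higher; the listed genes then had 12 lower and 8 higher, and all loci 674 lower and 591 higher. With outlier local backgrounds kept, all loci had 1919 lower and 1143 higher (37.3% of calls higher, against 48.3%), and 17 listed genes were higher. The deposited series table gave 6369 lower and 2480 higher (28.0% of calls higher), with its median over all loci at -0.15. Leaving out 1 replicate gave 2487 to 4335 lower and 2319 to 3903 higher, and NRT3.1 between -0.549 and -0.0949. The sign turned for CIPK23 with median centring (-0.0203) and the series table (-0.0319), for AT5G11570 with the series table (-0.10), and for NLP7 without replicate 2 (0.0023; lowest -0.108, without replicate 3), all uncalled. The causes of these shifts were not tested. With median centring the fit gave each tested nitrate gene the same SE, 0.32, where the main fit gave 0.08 to 0.20. A call that ended in that setting thus met a larger SE as well as a changed ratio. Since the SE was the same for each of these genes, calls kept or lost there did not use a gene's own spread between arrays. Each ratio sets the genotypes of a replicate against each other on 1 array, so the test is already paired and no further replicate block could be fitted. The replicates' number, 3, and signal over background limited what could be seen: NRT2.2 and NRT2.4 gave no ratio.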
